A study of Mus musculus with 8 samples.

Results

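The colonic epithelium of mice was compared between the active phase and the resting phase of the day. Active-phase crypts were collected at zeitgeber time (ZT) 12 and ZT18, and resting-phase crypts at ZT0 and ZT6. The active phase is the dark hours, in which mice move and feed, and the resting phase is the light hours. Zeitgeber time counts the hours from lights-on. ZT0 thus stands at the start of the light hours and ZT12 at the start of the dark hours, when each phase has only begun. There were 2 libraries per time point, and 4 active libraries thus stood against 4 resting libraries, with no sample of the series left over. The comparison covered every gene whose mean over the 8 libraries was at least 10 normalised counts, which was 13503 of the 14247 genes in the deposited table. All 8 libraries carried the same genotype, labelled WT, and none was treated. By the methods of the study, its mice were on a C57BL/6 background, were 2 to 4 months old, came from the same litter and lived in 12 h of light and 12 h of darkness with free access to food. Crypts were loosened from the opened large intestine with EDTA and scraped off, which yields epithelium but does not sort cells. The study counts its replicates as mice, and the labels of the 2 libraries of a time point do not themselves say that they came from separate animals. If they did not, the p-values measure only the spread between these libraries.

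Mammalian cells keep time with a loop of transcription factors. CLOCK and BMAL1 (gene symbol Arntl) bind E-boxes and switch on the Per and Cry genes, whose proteins return to the nucleus and inhibit CLOCK and BMAL1. A further loop joins the Nr1d1 and Nr1d2 genes, which encode the repressors REV-ERBα and REV-ERBβ, with the ROR activators, and the proline and acidic amino acid-rich factors DBP and TEF carry the rhythm to output genes through D-boxes. In the gut, feeding time, glucocorticoids and microbial signals are known to act on this clock, and cell division in crypts is known to vary over the day.

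The libraries held between 14722342 and 25159440 reads, and total reads did not separate the phases (exact permutation test, two-sided, p = 0.486, n = 4 per phase, smallest p possible 0.0286). The mitochondrial genome took 6.68% to 22.2% of the normalised counts in active libraries and 12.2% to 19.8% in resting libraries (exact permutation p = 0.200). Epithelial markers (Epcam, keratins and others) summed to between 215820 and 280000 normalised counts in every library. RNA of other tissues was uneven. Smooth muscle markers summed to 3858 in ZT12 replicate 1 and to 35.4 to 476 in the other 7 libraries, B and plasma cell markers to 2871 in ZT0 replicate 2 and to 90.3 to 840 elsewhere, and milk protein genes to 4149 in ZT18 replicate 1 and to at most 89.2 elsewhere. The prostate gene Pbsn was read in ZT12 replicate 2 alone, at 1299 normalised counts, and was at 0 in the other 7 libraries.

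**Figure D1:**
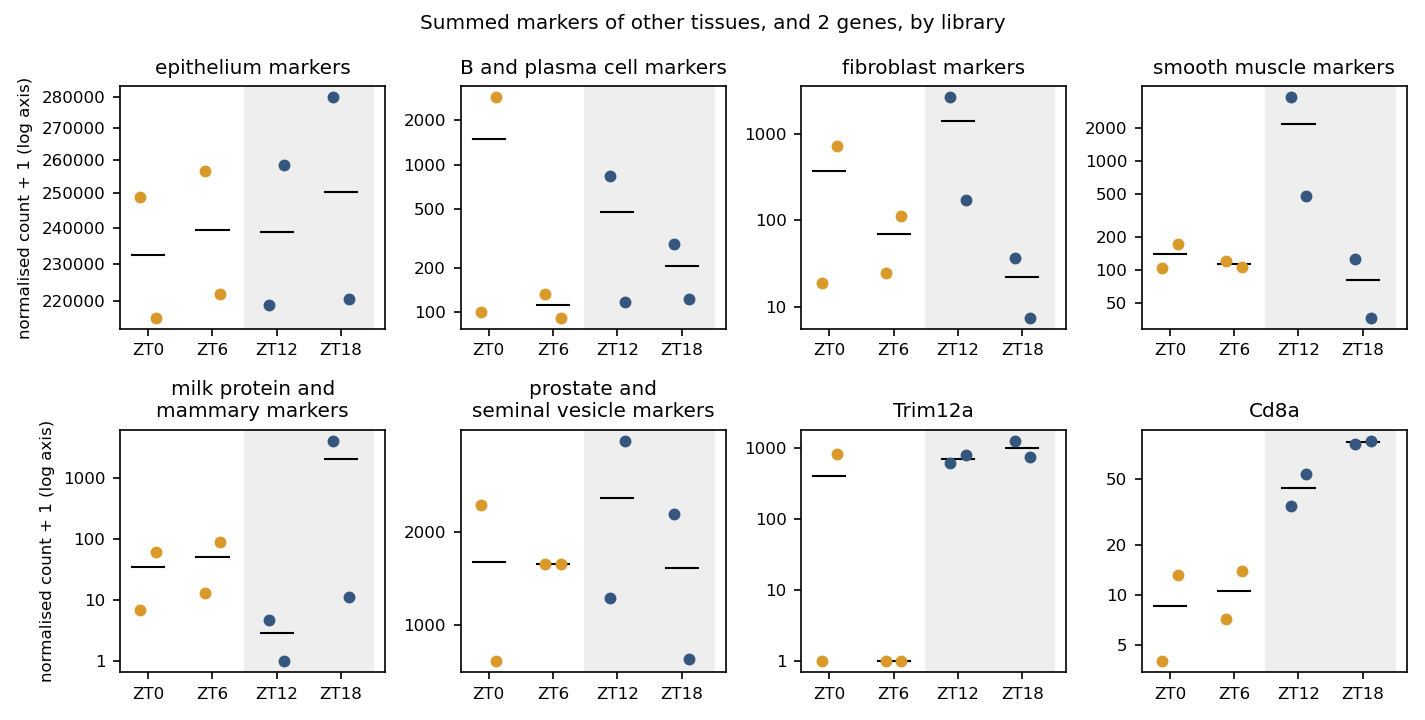
Summed normalised counts of 6 marker lists, and the normalised counts of Trim12a and Cd8a, in each of the 8 libraries by time point (log axis, 1 added to each value). Points are libraries, bars are means of 2 libraries, orange marks the resting phase and blue on grey the active phase. Smooth muscle stands out in ZT12 replicate 1 at 3858 and milk protein genes in ZT18 replicate 1 at 4149, while epithelial markers stay between 215820 and 280000.

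Few genes separated the phases when each was held against the spread between libraries of the same time point. In the active phase 6 genes rose (0.0444% of the genes tested) and 2 fell (0.0148%), together 8 of 13503 (0.0592%), in a limma fit on log2(normalised count + 1) with the adjusted p under 0.05. Among the 6 that rose were the clock genes Per1, Per2, Per3, Tef and Dbp, and the 2 that fell were Sprr2a1, a gene of the cornified envelope family, and the long non-coding RNA Gm42047. At an unadjusted p under 0.05, 511 genes were higher in the active phase (3.78%) and 516 lower (3.82%), about as many in either direction. All 4 active libraries lay above all 4 resting libraries in 305 genes (2.26%) and below them in 278 (2.06%). The count of called genes moved with single libraries. It was 0 without ZT6 replicate 1, without ZT6 replicate 2 or without ZT12 replicate 2, where limma left 441, 500 and 1173 genes at an unadjusted p under 0.05. It was 2 without ZT12 replicate 1 or ZT18 replicate 2, 4 without ZT18 replicate 1, 9 without ZT0 replicate 2 and 12 without ZT0 replicate 1. On whole reads recovered from the table, edgeR called 1 gene, Per2, and DESeq2 called 71, of which 36 were higher, and these 71 held all 8. Pbsn, read in ZT12 replicate 2 alone, was among the 71. So were Trim12a, Phyhip and Fam124a, in which ZT0 replicate 2 went with the active libraries. In simulated counts, 67, 66 and 65 genes were changed by 0.5, 1 and 2 on the log2 scale. DESeq2 recovered 14.9%, 60.6% and 90.8% of these and also called 49 unchanged genes. Limma recovered 2.99%, 36.4% and 81.5% and also called 8 unchanged genes. These numbers do not give the share of false calls among the 8 or the 71.

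**Figure D2:**
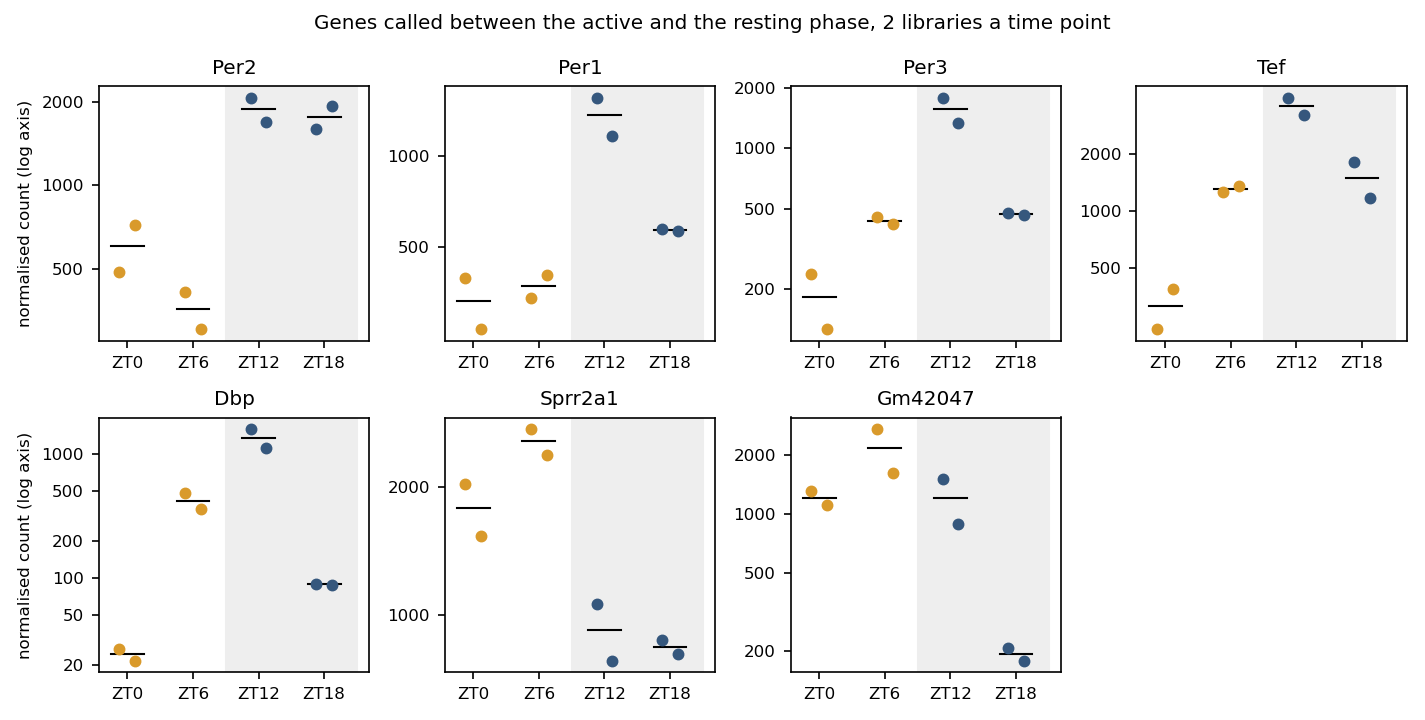
Normalised counts (log axis) of 7 of the genes called between the phases, by time point. Points are single libraries, bars are means of the 2 libraries, orange is the resting phase and blue on grey the active phase. In Per2, Per1, Per3 and Sprr2a1 the phases do not overlap, while in Tef, Dbp and Gm42047 a time point of one phase lies among or beyond those of the other.

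Per2 was the gene whose level followed the phases most closely. It encodes a core repressor of CLOCK and BMAL1 and lies at chr1:91415982-91459324 on the minus strand (GRCm38, as are the other positions). Its resting libraries had 487 and 716 normalised counts at ZT0 and 412 and 302 at ZT6, and its active libraries 2068 and 1692 at ZT12 and 1599 and 1923 at ZT18. Every active library was above the highest resting library, and ZT12 and ZT18 were alike. Per2 averaged 1821 ± 214 in the active and 479 ± 175 in the resting phase (SD, n = 4 each). Its log2 fold change was 1.99 with an SE of 0.17 (adjusted p = 0.0145). It was 1.66 higher at ZT12 than at ZT0 and 2.31 higher at ZT18 than at ZT6 on the log2 scale. The call for Per2 held in 15 of the 21 alternative fits, the most of any gene.

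Per1 and Per3, the other period genes, were also higher in all 4 active libraries, but mainly at ZT12. Per1 lies at chr11:69095217-69109960 on the plus strand and Per3 at chr4:151003652-151044665 on the minus strand. Per1 had 392 and 265 counts at ZT0, 338 and 403 at ZT6, then 1570 and 1170 at ZT12 and 574 and 563 at ZT18, so that its resting values were flat and ZT18 was little above them. Its log2 fold change was 1.35 ± 0.17 (adjusted p = 0.0460), made of 2.07 between ZT12 and ZT0 and 0.62 between ZT18 and ZT6. Per3 had 238 and 127 counts at ZT0, 457 and 420 at ZT6, then 1784 and 1341 at ZT12 and 480 and 470 at ZT18. The ZT18 libraries of Per3 were barely above the ZT6 libraries. Its log2 fold change was 1.63 ± 0.21 (adjusted p = 0.0460), with 3.15 between ZT12 and ZT0 and 0.12 between ZT18 and ZT6. Per3 overlaps Camta1 on the same strand, and reads in the shared stretch cannot be told apart.

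Tef and Dbp, which encode D-box binding activators, were called although their phases overlapped. Tef lies at chr15:81802421-81826863 and Dbp at chr7:45705088-45710203, both on the plus strand. Tef had 237 and 390 counts at ZT0, 1259 and 1354 at ZT6, then 4001 and 3239 at ZT12 and 1830 and 1182 at ZT18, so that a ZT18 library lay below both ZT6 libraries. Its log2 fold change was 1.87 ± 0.20 (adjusted p = 0.0358). Dbp had 26.8 and 21.5 counts at ZT0, 482 and 361 at ZT6, then 1593 and 1113 at ZT12 and 89.7 and 88.5 at ZT18. The resting ZT6 libraries of Dbp were thus well above the active ZT18 libraries. Dbp had a log2 fold change of 1.76 ± 0.21 (adjusted p = 0.0368), the mean of a difference of 5.74 between ZT12 and ZT0 and one of -2.22 between ZT18 and ZT6. Dbp lies across from Sphk2 on the other strand.

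Among the 17 clock repressors and output factors tested, 5 rose (29.4%, against 0.0444% of all genes) and none fell. A positive fold change was found in 15, and 13 of these (76.5%) stood at an unadjusted p under 0.05, against 3.78% of all genes. The list's median log2 fold change was 0.77, beside 0.00 over all genes tested, and it kept its sign without each library (0.63 to 0.90) and under each scaling (0.74 to 0.77). These genes, and those of the activator list below, were known to be rhythmic in these libraries when the lists were written. Cry2, a cryptochrome that represses alongside the PER proteins, had 462 to 658 counts in resting and 837 to 1029 in active libraries, which did not overlap, with a log2 fold change of 0.77 ± 0.15 that did not pass (adjusted p = 0.261). Nr1d2 came close to the threshold at 1.12 ± 0.15 (adjusted p = 0.0577), and its partner Nr1d1 had -0.16 ± 0.24 (adjusted p = 0.890). Of the activators, Arntl had -0.80 ± 0.19 (adjusted p = 0.437), Npas2, a paralogue of Clock, -0.85 ± 0.23 (adjusted p = 0.519) and Clock itself -0.07 ± 0.16 (adjusted p = 0.928). DESeq2 called Cry2 and Nr1d2 as higher and Arntl as lower (adjusted p = 0.00847, 1.87e-07 and 0.0361). The ZT0 libraries were the highest for Arntl, at 1597 and 1038 counts, and the ZT12 libraries the lowest, at 301 and 436. The list's median of -0.07 turned to 0.11 without ZT0 replicate 1.

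The promoters of the called genes were searched for the letters of the E-boxes and D-boxes named above, and of other elements. RefSeq's promoter table (build GRCm38.p6) had an entry for 5 of the 8 called genes, Per1, Per3, Tef, Dbp and Sprr2a1, and for 10513 of the genes tested. In the 250 bases upstream of the start, on either strand, the E-box CACGTG stood in Per1 and Tef and in 9.67% of all genes with an entry, and the D-box TTATGTAA or TTATGCAA in Per1 and Per3 and in 1.34% of all. The ROR element TAGGTCA was found in none of the 5 and in 2.10% of all, the glucocorticoid half-site AGAACA in Tef and in 13.2%, and the heat shock core TTCNNGAA in Sprr2a1 and in 7.09%. E-box and D-box letters do not overlap here. In the stretches below, which lie outside annotated exons of their gene, capitals mark E-boxes and D-boxes, and each runs from 25 bases before to 25 after the outermost motif, or to the first exon.
Per1, chr11:69098758-69098947, plus strand, an E-box 166 and a D-box 24 bases before the start: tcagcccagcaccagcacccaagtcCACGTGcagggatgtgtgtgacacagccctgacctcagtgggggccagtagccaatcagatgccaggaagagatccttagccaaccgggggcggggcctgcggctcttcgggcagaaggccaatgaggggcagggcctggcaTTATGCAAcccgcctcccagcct
Per3, chr4:151044791-151044895, minus strand, D-boxes 205 and 158 bases before the start: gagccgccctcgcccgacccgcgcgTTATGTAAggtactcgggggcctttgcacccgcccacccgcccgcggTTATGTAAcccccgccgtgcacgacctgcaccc
Tef, chr15:81811251-81811306, plus strand, an E-box 138 bases before the downstream of its 2 listed starts: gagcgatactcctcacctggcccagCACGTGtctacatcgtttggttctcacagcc
A match is a match of letters, and no binding was measured.

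Of the 2 genes that fell in the active phase, Sprr2a1 belongs to the small proline-rich proteins, which are known to be induced in stressed or renewing epithelium, and lies at chr3:92215799-92221911 on the plus strand. It had 2036 and 1533 counts at ZT0, 2740 and 2385 at ZT6, then 1065 and 782 at ZT12 and 875 and 812 at ZT18. Its highest active library was below its lowest resting library, and the 2 active time points did not differ beyond the spread of their libraries. The log2 fold change was -1.28 ± 0.15 (adjusted p = 0.0368). The near-identical neighbour Sprr2a2 overlaps it on the same strand and had 2627 to 4901 counts in resting and 1356 to 1915 in active libraries, a log2 fold change of -1.12 ± 0.16 that did not pass (adjusted p = 0.0727), and reads of these copies cannot be told apart. Gm42047, a long intergenic RNA at chr8:121833247-121841178 on the plus strand, had 1317 and 1112 counts at ZT0, 2719 and 1619 at ZT6, then 1514 and 892 at ZT12 and 206 and 178 at ZT18. Its fall (-1.75 ± 0.22, adjusted p = 0.0409) came with a difference of -3.45 between ZT18 and ZT6 on the log2 scale, and one of -0.06 between ZT12 and ZT0. It overlaps Gm20388 on the same strand.

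The remaining genes whose active and resting libraries did not overlap did not pass the test, and the next by p are given as values. Among those higher in the active phase, Mthfd1l, a mitochondrial enzyme of the folate cycle, had 152 to 227 counts in resting and 317 to 419 in active libraries (log2 fold change 1.02 ± 0.18, adjusted p = 0.213). Pm20d1, which makes N-acyl amino acids, had 187 to 370 and 393 to 1095 (1.29 ± 0.20, adjusted p = 0.130). Fam102a had 0.65 ± 0.12, Tmem260 0.84 ± 0.16 and Fndc3a 0.63 ± 0.13 on the same scale, with adjusted p of 0.230, 0.261 and 0.261. In each of these 5 genes the lowest active library was above the highest resting one. Cd8a, the co-receptor of cytotoxic T cells that intraepithelial lymphocytes also carry, had 2.98 to 13.1 counts in resting and 33.7 to 84.4 in active libraries (2.82 ± 0.56, adjusted p = 0.261). In bulk RNA, fewer cells of a type and less RNA per cell cannot be told apart. The 5 T cell markers with a mean of at least 10 had a median log2 fold change of 1.47. Of these 5, Cd8a alone stood at an unadjusted p under 0.05. Among all T cell markers, Cd3e, Cd3d, Cd3g, Trac, Cd2 and Gzma were at 0 in at least 1 library. All T cell markers together summed to 134 to 288 counts in active and 29.8 to 187 in resting libraries. The sum of 187 was that of ZT0 replicate 2, and the other resting sums were 29.8 to 98.6. The part of T cells in the level of Cd8a was not tested.

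Trim30a and Trim30d, members of an antiviral gene cluster on chromosome 7, also stood in this group, with log2 fold changes of 1.98 ± 0.35 (adjusted p = 0.213) and 3.83 ± 0.77 (adjusted p = 0.269). Trim30d had 30.8 and 693 counts at ZT0, 45.6 and 27.2 at ZT6, then 781 and 1386 at ZT12 and 1050 and 1048 at ZT18. ZT0 replicate 2 was thus more like the active libraries than like the other 3 resting ones. The result for Trim30d turned on the ZT0 libraries. It passed without ZT0 replicate 2 (4.95, adjusted p = 0.00117), without ZT0 replicate 1 (2.72, adjusted p = 0.0263) and without ZT12 replicate 1 and ZT0 replicate 2 together (5.15, adjusted p = 0.0268). Their neighbours, chosen after their values were seen, were at 0 reads in the same 3 resting libraries, ZT0 replicate 1 and both of ZT6. In the other 5 libraries Trim12a had 627 to 1283 counts, Trim5 127 to 220 and Gm15133 24.1 to 61.1, while Trim6 and Trim12c, in the same stretch, had 235 to 328 and 938 to 1514 in all 8. Trim34b, also in this stretch, ran the other way, with 52.6, 91.2 and 100.1 counts in those 3 libraries and 13.7 to 32.5 in the other 5. Whether this split of libraries bears on Trim30a and Trim30d was not tested.

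Among those lower in the active phase, several act in cell division. Cenpa, the histone variant of the centromere, had 590 and 591 counts at ZT0, 441 and 379 at ZT6, then 256 and 272 at ZT12 and 278 and 241 at ZT18 (log2 fold change -0.91 ± 0.15, adjusted p = 0.155). Knstrn, a kinetochore-associated protein, had 336 to 526 in resting and 162 to 227 in active libraries (-1.05 ± 0.19, adjusted p = 0.213). Cdca3, which promotes entry into mitosis, had -0.95 ± 0.17 (adjusted p = 0.213) and Sapcd2, known for orienting the spindle, -1.41 ± 0.28 (adjusted p = 0.261). Egr1, an immediate early transcription factor, had 316 to 423 in resting and 173 to 223 in active libraries (-0.94 ± 0.17, adjusted p = 0.213). Pck2, the mitochondrial form of phosphoenolpyruvate carboxykinase, had 882 to 1150 and 591 to 726 (-0.63 ± 0.13, adjusted p = 0.269). The other 4 were Hsbp1l1 (-1.78 ± 0.32), Fcho1 (-1.41 ± 0.26), the antisense RNA 9230105E05Rik (-1.17 ± 0.22), which lies across from Hmga2, and Mettl27 (-0.87 ± 0.18), with adjusted p from 0.213 to 0.269.

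Genes of mitosis and G2/M leaned lower in the active phase as a list. Of the 38 tested, 37 had a negative fold change and 25 (65.8%) stood at an unadjusted p under 0.05 on the lower side, against 3.82% of all genes, yet none passed the adjustment over all genes. The median was -0.58, beside 0.00 over all genes, and it lay between -0.66 and -0.48 without each library and between -0.62 and -0.58 under the other scalings. Ccnb1, which encodes cyclin B1, had -0.61 ± 0.19 (adjusted p = 0.608), its kinase Cdk1 -0.42 ± 0.16 (adjusted p = 0.629) and the proliferation marker Mki67 -0.56 ± 0.13 (adjusted p = 0.437). Mki67 had 4158 and 4021 counts at ZT0, 3574 and 2575 at ZT6, then 2628 and 2458 at ZT12 and 2238 and 2268 at ZT18. ZT0 was the high point and the other times differed less. By library, the median deviation of the list from each gene's mean was 0.74 and 0.43 at ZT0, then 0.10 and -0.19 at ZT6, and between -0.29 and -0.18 in the 4 active libraries. Accordingly, the list's median was -0.84 between ZT12 and ZT0 and -0.19 between ZT18 and ZT6, and 29 of the 38 were lower in both. Wee1, the kinase that holds CDK1 inactive and a known clock target, was the exception at 0.62 ± 0.23 (adjusted p = 0.617). DESeq2 called 4 of the 38, Mki67, Cenpa, Ube2c and Cdca3, all lower, beside 35 called lower over all 13503 genes. Without ZT12 replicate 1 and ZT0 replicate 2, the libraries with the most smooth muscle and B cell marker RNA, the median was -0.60.

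Genes of DNA replication, which act earlier in the cell cycle, did not follow the mitotic genes. Of 39 tested, 24 were higher and 15 lower in the active phase, none was called and the median was 0.07 (0.00 without ZT12 replicate 2). Each pair of times gave a different picture. Between ZT18 and ZT6 all 39 were higher, with a median of 0.60, and between ZT12 and ZT0 4 were higher, with a median of -0.34. Mcm2, a subunit of the replicative helicase, had 0.59 ± 0.15 (adjusted p = 0.471), Pcna, the sliding clamp, 0.09 ± 0.14 (adjusted p = 0.887) and Ccne1, cyclin E1, 0.33 ± 0.31 (adjusted p = 0.822). Mcm2 had 290 to 398 counts in resting and 421 to 672 in active libraries, which did not overlap. Crypt stem cell genes and Wnt targets were divided, with 8 of 20 higher, a median of -0.04 and no call. At an unadjusted p under 0.05 in limma, 2 were lower (10%, against 3.82% of all genes) and 0 higher. Lgr5, the stem cell marker, had 0.32 ± 0.37 (adjusted p = 0.858), Axin2, a Wnt feedback gene, -0.49 ± 0.20 (adjusted p = 0.647) and Ascl2, a stem cell transcription factor, 0.06 ± 0.33 (adjusted p = 0.973).

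**Figure D3:**
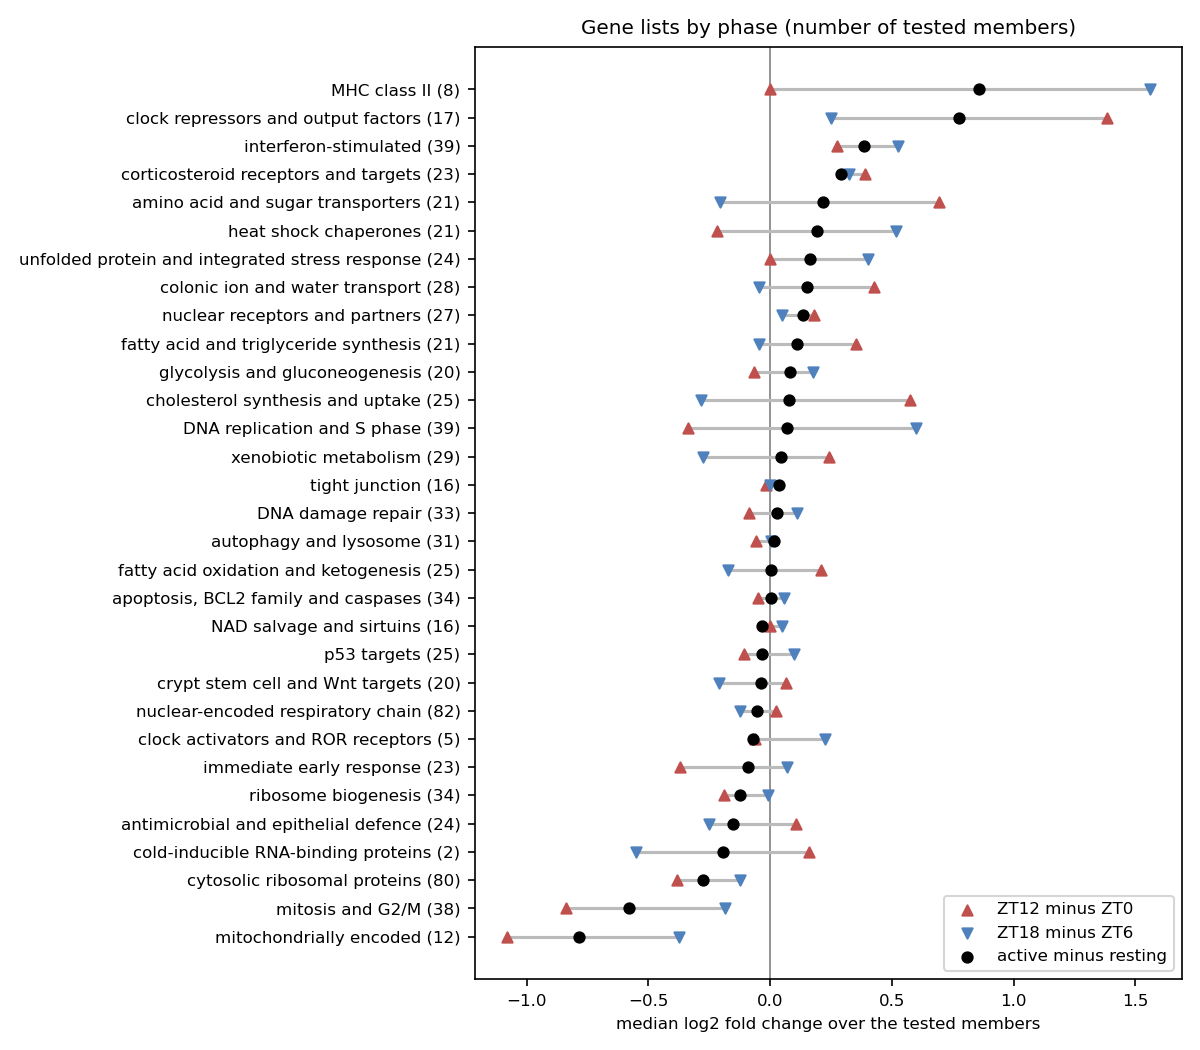
Median log2 fold change over the tested members of the 31 gene lists (number of members in brackets). Black points give active minus resting, red triangles ZT12 minus ZT0 and blue triangles ZT18 minus ZT6, and grey lines join the last pair. Mitosis and G2/M is at -0.58, with the times at -0.84 and -0.19 on the same side of 0, while DNA replication is at 0.07, with -0.34 and 0.60 on opposite sides.

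Corticosteroid receptors and targets held 1 gene called (4.35%, against 0.0444% of all genes called higher), Per1, which is also a clock gene. Of the 23 tested, 16 were higher, and the list's median was 0.29. At an unadjusted p under 0.05, 7 were above (30.4%, against 3.78% of all genes) and 2 below (8.70%, against 3.82%). Sgk1, the kinase through which aldosterone and glucocorticoids raise sodium uptake, had 3760 and 4285 counts at ZT0, 2622 and 2832 at ZT6, then 4265 and 6942 at ZT12 and 7944 and 9421 at ZT18 (log2 fold change 1.05 ± 0.17, adjusted p = 0.150). A ZT12 library fell just short of the highest ZT0 library, and the other active libraries were above all resting ones. Fkbp5, a chaperone of the glucocorticoid receptor and one of its targets, had 1599 to 2526 in resting and 3063 to 4448 in active libraries, without overlap (0.86 ± 0.18, adjusted p = 0.269), and Tsc22d3, which encodes GILZ, had 0.67 ± 0.21 (adjusted p = 0.604). Of the receptors, Nr3c1 was at 0.29, as was the list's median, and Nr3c2 at 0.07. DESeq2 called 3 of the 23, Per1, Sgk1 and Fkbp5, all higher, beside 36 called higher over all 13503 genes. The Scnn1g and Scnn1b of the epithelial sodium channel stand in this list and in the next, at 1.44 ± 0.44 (adjusted p = 0.604) and 0.69 ± 0.23 (adjusted p = 0.608).

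Colonic ion and water transport, the main work of surface colonocytes, had no call in 28 genes, with 20 higher, 8 lower and a median of 0.15. The members written at its head were Slc26a3, the chloride and bicarbonate exchanger, at 0.54 ± 0.26 (adjusted p = 0.686), the water channel Aqp8 at -0.23 ± 0.33 (adjusted p = 0.880) and the carbonic anhydrase Car4 at -0.31 ± 0.22 (adjusted p = 0.779). At an unadjusted p under 0.05, 5 were higher (17.9%, against 3.78% of all genes), led in size by Scnn1g, and 4 lower (14.3%, against 3.82%). Slc9a3, the sodium and hydrogen exchanger of the brush border, had 4386 and 4351 counts at ZT0, 7773 and 8096 at ZT6, then 12300 and 9862 at ZT12 and 9387 and 7955 at ZT18, so that ZT0 was low and ZT6 reached ZT18. It had 0.73 ± 0.13 (adjusted p = 0.213) and was called by DESeq2. Trpm6, a magnesium channel, had -0.88 and Trpv6, a calcium channel, -0.69. DESeq2 called Trpm6 on the lower side. Slc9a3, Trpm6 and Trpv6 were named after their values were seen. The transporters of amino acids and sugars had 15 of 21 higher, no call and a median of 0.22, with 0.69 between ZT12 and ZT0 and -0.20 between ZT18 and ZT6. The median was 0.09 without ZT0 replicate 2 and without ZT12 replicate 1, and 0.00 (11 higher) without both. Slc5a1, the sodium-linked glucose carrier, had 0.50 ± 0.15 (adjusted p = 0.604), Slc7a5 -0.02 ± 0.28 (adjusted p = 0.991) and Slc3a2, its partner in the large amino acid carrier, 0.04 ± 0.12 (adjusted p = 0.955).

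Interferon-stimulated genes were higher in the active phase in 36 of 39, with a median of 0.39. At an unadjusted p under 0.05, 11 were above (28.2%, against 3.78% of all genes) and 1 below (2.56%, against 3.82%). Limma called none, and DESeq2 called 1, on the higher side, beside 36 called higher over all 13503 genes. Ifit1 had 0.64 ± 0.28 (adjusted p = 0.652) and Isg15 0.61 ± 0.52 (adjusted p = 0.808). Libraries of a time point differed: the median deviation of the list was -0.79 and -0.28 at ZT0, -0.03 and 0.21 at ZT6, then -0.69 and 0.11 at ZT12 and 0.87 and 0.44 at ZT18. Without ZT12 replicate 2 the median was 0.19 and 3 genes were above at an unadjusted p under 0.05, and without ZT12 replicate 1 and ZT0 replicate 2 together it was 0.71 and 23 were. Trim30a and Trim30d, described above, are interferon-responsive genes outside this list.

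MHC class II genes, which present antigen, had the median farthest above 0 of the 31 gene lists, at 0.86. None of the 8 was called or at an unadjusted p under 0.05. Cd74, the invariant chain, had 184 and 3330 counts at ZT0, 420 and 198 at ZT6, then 677 and 1123 at ZT12 and 1326 and 1311 at ZT18 (log2 fold change 1.17 ± 0.73, adjusted p = 0.746). ZT0 replicate 2 exceeded every other library. In that library B and plasma cell markers summed to 2871 counts, against 90.3 to 131 in the other resting and 115 to 840 in the active libraries, and myeloid markers to 1943 against 629 to 1123. Without it the list's median was 1.58 and 6 of the 8 were above at an unadjusted p under 0.05, and without ZT0 replicate 1 the median was 0.05. H2-Ab1 had 0.89 ± 0.55 (adjusted p = 0.746) and Ciita, the master regulator of the class, 0.97 ± 0.63 (adjusted p = 0.753).

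**Figure D4:**
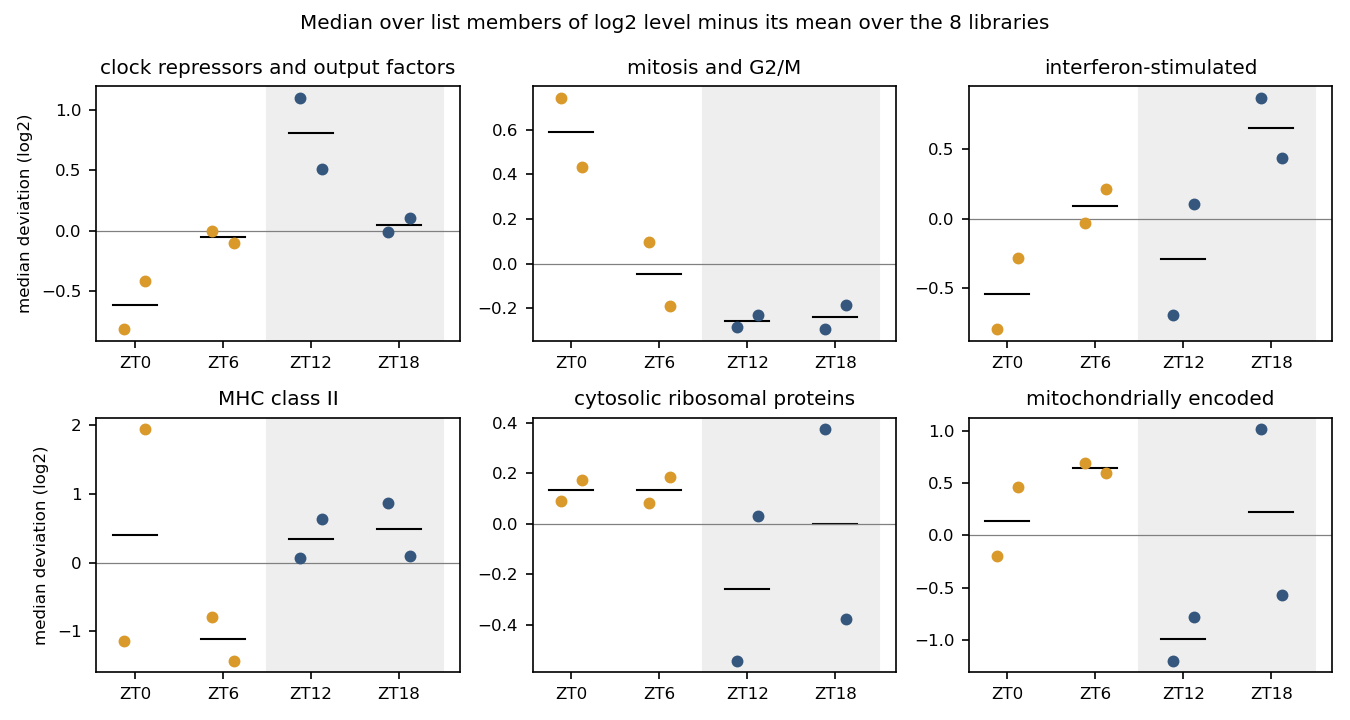
Median over list members of log2(normalised count + 1) minus the gene's mean over the 8 libraries, for 6 lists by time point. Points are libraries, bars are means of 2 libraries, orange is the resting phase and blue on grey the active phase. Mitosis and G2/M falls from 0.74 and 0.43 at ZT0 to between -0.29 and -0.18 in the active libraries, while MHC class II spreads from -1.14 to 1.94 within ZT0 and mitochondrially encoded genes from -0.57 to 1.02 within ZT18.

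The stress lists had medians that varied between the pairs of times, and none of their genes was called for that difference (limma). Hsph1 came to an adjusted p of 0.0574 for it. Heat shock chaperones had 19 of 21 higher in the active phase, a median of 0.19 and no call. At an unadjusted p under 0.05 in limma, 3 were higher (14.3%, against 3.78% of all genes) and 0 lower. The list's median was -0.22 between ZT12 and ZT0, where 2 were higher, but 0.52 between ZT18 and ZT6, where 18 were. Hspa1b, an inducible HSP70, had 0.40 ± 0.41 (adjusted p = 0.839), Hsph1 0.51 ± 0.18 (adjusted p = 0.613) and Dnajb1 0.14 ± 0.17 (adjusted p = 0.872). Hsph1 had 675 and 1081 counts at ZT0, 291 and 307 at ZT6, then 449 and 579 at ZT12 and 916 and 1138 at ZT18, with its low point at ZT6. The cold-inducible RNA-binding proteins Cirbp and Rbm3, which are known to move opposite to body temperature, had -0.50 ± 0.21 (adjusted p = 0.647) and 0.11 ± 0.13 (adjusted p = 0.855). In the unfolded protein and integrated stress response 18 of 24 were higher, with a median of 0.16 and no call. At an unadjusted p under 0.05 in limma, 3 were higher (12.5%, against 3.78% of all genes). On the lower side 1 was (4.17%, against 3.82%). The chaperone Hspa5 had 0.18 ± 0.13 (adjusted p = 0.780), and the transcription factors Ddit3 and Atf4 had -0.45 ± 0.27 and -0.31 ± 0.12 (adjusted p = 0.726 and 0.647). Of 23 immediate early genes, which tissue handling is known to induce, 16 were lower and 7 higher, with a median of -0.09 and Egr1 the most extreme. DESeq2 called Egr1 on the lower side. The list's median was 0.08 without ZT12 replicate 1. Fos had -0.05 ± 0.31 (adjusted p = 0.979) and Jun -0.25 ± 0.13 (adjusted p = 0.703).

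Metabolic lists held no call and were near the middle of all genes over the phases. Their medians leaned opposite ways at the 2 pairs of times, while libraries of the same time point also differed. Cholesterol synthesis and uptake had 18 of 25 higher and a median of 0.08, made of 0.57 between ZT12 and ZT0, where 24 of 25 were higher, and -0.28 between ZT18 and ZT6, where 4 were. The phase median was 0.00 (13 higher) without ZT0 replicate 2, 0.02 (14 higher) without ZT12 replicate 1 and -0.07 (7 higher) without both. By library, the list's median deviation was -0.03 and -0.44 at ZT0 and 0.06 and 0.41 at ZT6. It was 0.37 and 0.02 at ZT12 and 0.09 and -0.27 at ZT18. Sqle, the enzyme that makes squalene epoxide, had 0.27 ± 0.18 (adjusted p = 0.770). Fatty acid and triglyceride synthesis had a median of 0.11 (14 of 21 higher), with 0.35 and -0.05 at the 2 pairs of times. Fasn, the fatty acid synthase, had 0.18 ± 0.16, Acaca -0.03 ± 0.15 and Scd2 0.46 ± 0.22 (adjusted p = 0.811, 0.968 and 0.677).

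Fatty acid oxidation and ketogenesis had a median of 0.01, which changed sign under 2 of 3 scalings. It was 0.18 without ZT18 replicate 1 and -0.13 without ZT18 replicate 2. By library, the list's median deviation at ZT18 was -0.26 and 0.28. Cpt1a had 0.04 ± 0.21 and Pdk4 -0.65 ± 0.65 (adjusted p = 0.973 and 0.832). Glycolysis and gluconeogenesis had 13 of 20 higher and a median of 0.08, with Hk2 at -0.28 ± 0.16, Pfkp at 0.15 ± 0.15 and Ldha at 0.16 ± 0.18 (adjusted p = 0.722, 0.83 and 0.853). Xenobiotic metabolism had 16 of 29 higher and a median of 0.05, with Nqo1 at 0.10 ± 0.34, Por at 0.19 ± 0.16 and Cyp2c55 at -0.28 ± 0.44 (adjusted p = 0.957, 0.801 and 0.891). Between ZT12 and ZT0 22 of the 29 were higher, and between ZT18 and ZT6 9 were. By library, this list's median deviation at ZT18 was -0.30 and 0.21. Its phase median was 0.155 without ZT18 replicate 1 and -0.085 without ZT18 replicate 2.

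Of the barrier and defence genes, Sprr2a1 was the only call. Of 24 antimicrobial and epithelial defence genes 17 were lower and 7 higher, with a median of -0.15 that was 0.01 without ZT18 replicate 2. At an unadjusted p under 0.05 in limma, 4 were lower (16.7%, against 3.82% of all genes) and 0 higher. Reg3b, a secreted antimicrobial C-type lectin, had 6.95 and 4320 counts at ZT0, 4478 and 712 at ZT6, then 3737 and 605 at ZT12 and 0 and 2319 at ZT18. Libraries of a time point thus differed more than the phases did. Reg3b had -1.10 ± 2.47, Reg3g -0.90 ± 1.59 and Retnlb, the goblet cell product RELMβ, 1.63 ± 1.15 (adjusted p = 0.930, 0.906 and 0.775). Of 16 tight junction genes 9 were higher, with a median of 0.04. At an unadjusted p under 0.05 in limma, 2 were lower (12.5%, against 3.82% of all genes) and 0 higher. Cldn8, a claudin of the distal gut, was called by DESeq2 on the lower side (-0.89, adjusted p = 0.0181) and not by limma (adjusted p = 0.478). Cldn3 had -0.11 ± 0.18, Ocln -0.04 ± 0.18 and Tjp1 0.14 ± 0.14 (adjusted p = 0.890, 0.968 and 0.832). The tight junction median changed sign under 2 of 3 scalings.

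Lists of cell death and upkeep had medians close to that of all genes. Over all 31 lists, the sign of the median changed in 14 when some single library was left out, these lists among them. Apoptosis genes of the BCL2 family and caspases were evenly divided in sign, 17 higher and 17 lower, with a median of 0.00 and no call. At an unadjusted p under 0.05 in limma, 4 of the 34 were lower (11.8%, against 3.82% of all genes). On the higher side there were 0, against 3.78% of all genes. Bax, a pore-forming executioner, had -0.46 ± 0.17 (adjusted p = 0.614) with 1041 to 1396 counts in resting and 614 to 1002 in active libraries, which did not overlap, and its relative Bak1 0.19 ± 0.18 (adjusted p = 0.824). Birc3, an inhibitor of apoptosis, was called by DESeq2 on the lower side (-0.74, adjusted p = 0.0268) and not by limma (adjusted p = 0.437). The p53 targets had 12 of 25 higher and a median of -0.03, with Trp53 at -0.08 ± 0.15, Cdkn1a at -0.12 ± 0.19 and Mdm2 at 0.08 ± 0.14 (adjusted p = 0.911, 0.892 and 0.897). DNA damage repair had 19 of 33 higher and a median of 0.03. Its members Brca1 and Xpa had 0.21 ± 0.24 and -0.27 ± 0.21 (adjusted p = 0.860 and 0.797). Autophagy and lysosome had 16 of 31 higher and a median of 0.02, with the receptor Sqstm1 at -0.26 ± 0.12, Map1lc3b at -0.18 ± 0.14 and Tfeb at 0.12 ± 0.19 (adjusted p = 0.657, 0.792 and 0.890). The medians for apoptosis and for autophagy changed sign under 2 of 3 scalings and that for DNA damage repair under 1.

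NAD salvage and sirtuins had 7 of 16 higher and a median of -0.03. Nampt, the rate-limiting enzyme of NAD salvage and a known clock target, had 0.38 ± 0.15 (adjusted p = 0.647), Sirt1 -0.02 ± 0.21 (adjusted p = 0.989) and Nmnat1 0.12 ± 0.23 (adjusted p = 0.916). Nuclear receptors and partners had 17 of 27 higher and a median of 0.13. Ppara, the fatty acid sensor, had 61.6 and 150 counts at ZT0, 118 and 145 at ZT6, then 709 and 173 at ZT12 and 88.9 and 441 at ZT18 (1.22 ± 0.58, adjusted p = 0.676), so that 1 library of each active time point stood above the other 6. Pparg had -0.08 ± 0.24 and Ppard -0.09 ± 0.12 (adjusted p = 0.956 and 0.867).

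Genes of protein synthesis and of the mitochondrial genome were lower in the active phase in nearly every member, with no call in limma. Of 80 cytosolic ribosomal protein genes 75 were lower, with a median of -0.27, and none stood at an unadjusted p under 0.05. The libraries of this list moved in opposite directions within ZT12 (-0.54 and 0.03) and within ZT18 (0.38 and -0.38), so that the median was -0.45 without ZT18 replicate 1, with 50 genes lower at an unadjusted p under 0.05, and -0.08 without ZT18 replicate 2. Rpl10, Rpl10a and Rpl11 had -0.23 ± 0.18, -0.39 ± 0.19 and -0.27 ± 0.19 (adjusted p = 0.798, 0.683 and 0.781). Ribosome biogenesis, which makes new subunits in the nucleolus, had 30 of 34 lower and a median of -0.12, with Nop56 at -0.45 ± 0.16, Fbl at -0.13 ± 0.16 and Ncl at -0.03 ± 0.14 (adjusted p = 0.613, 0.867 and 0.971). Of the 12 mitochondrially encoded genes 11 were lower, with a median of -0.79. At an unadjusted p under 0.05, 4 of them were lower (33.3%, against 3.82% of all genes). Mt-Atp6 had -0.75 ± 0.39, mt-Co1 -0.83 ± 0.82 and mt-Co2 -1.08 ± 0.25 (adjusted p = 0.703, 0.830 and 0.401). DESeq2 called mt-Co2 on the lower side (-1.12, adjusted p = 0.030). The list's median was -1.15 without ZT18 replicate 1 and -0.38 without ZT18 replicate 2, and its members make up the mitochondrial share given above. The nuclear genes of the respiratory chain lay at a median of -0.05 (57 of 82 lower), with Atp5a1 at 0.16 ± 0.16, Atp5b at 0.07 ± 0.16 and Atp5c1 at 0.14 ± 0.13 (adjusted p = 0.836, 0.940 and 0.827).

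The comparison of phases averages 2 pairs of times 12 h apart, ZT12 with ZT0 and ZT18 with ZT6, which share no library. Over all 13503 genes their log2 fold changes had a Pearson correlation of -0.09 across genes, which are not independent replicates, and 48.5% had the same sign. Even among the 150 genes at an unadjusted p under 0.05 in both, 66 (44.0%) had the same sign. Between ZT12 and ZT0 9 genes were called (0.0667%), all higher at ZT12, and 8 of them were clock genes: Dbp, Ciart, Tef, Per3, Nr1d2, Nr1d1, Per1 and Cipc. Between ZT18 and ZT6 6 genes were called (0.0444%), of which 3 were higher at ZT18, Cry1 and Per2 among them, and Gm42047, Nr1d1 and Ccdc116 were lower. Nr1d1 alone was called in both, with opposite signs.

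The difference between the 2 pairs was itself tested, and 13 genes were called (0.0963%), more than for the phases. Dbp had the smallest p, with a log2 fold change of 5.74 from ZT0 to ZT12 and of -2.22 from ZT6 to ZT18, a difference of 7.95 ± 0.42 (SE, adjusted p = 0.000164). Nr1d1 had 280 and 137 counts at ZT0, 1830 and 1352 at ZT6, then 1685 and 1306 at ZT12 and 197 and 142 at ZT18, which puts a high and a low time point in each phase. Its changes at the 2 pairs were 2.91 and -3.23 (difference 6.14 ± 0.49, adjusted p = 0.00198). Nr1d2 had 3.13 and -0.89 (4.02 ± 0.30, adjusted p = 0.00192). Cry1, a cryptochrome expressed later than the Per genes, ran the other way, with -1.0 and 2.04 (-3.04 ± 0.27, adjusted p = 0.00347), with 935 and 863 counts at ZT0, 265 and 312 at ZT6, then 419 and 481 at ZT12 and 1137 and 1239 at ZT18. Ccdc116, which lies across from Ydjc, had 1.52 and -1.74 (3.27 ± 0.31, adjusted p = 0.00533). Its levels were high at ZT6, at 562 and 576 counts, and at ZT12, at 437 and 379, and low at ZT0 and ZT18, at 137 to 170. Ciart, Tef, Tppp3, Gm42047, Tns4, Nfil3 and Per3 were called as well, so that Dbp, Tef, Per3 and Gm42047 were called between the phases and also differed between the pairs of times.

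**Figure D5:**
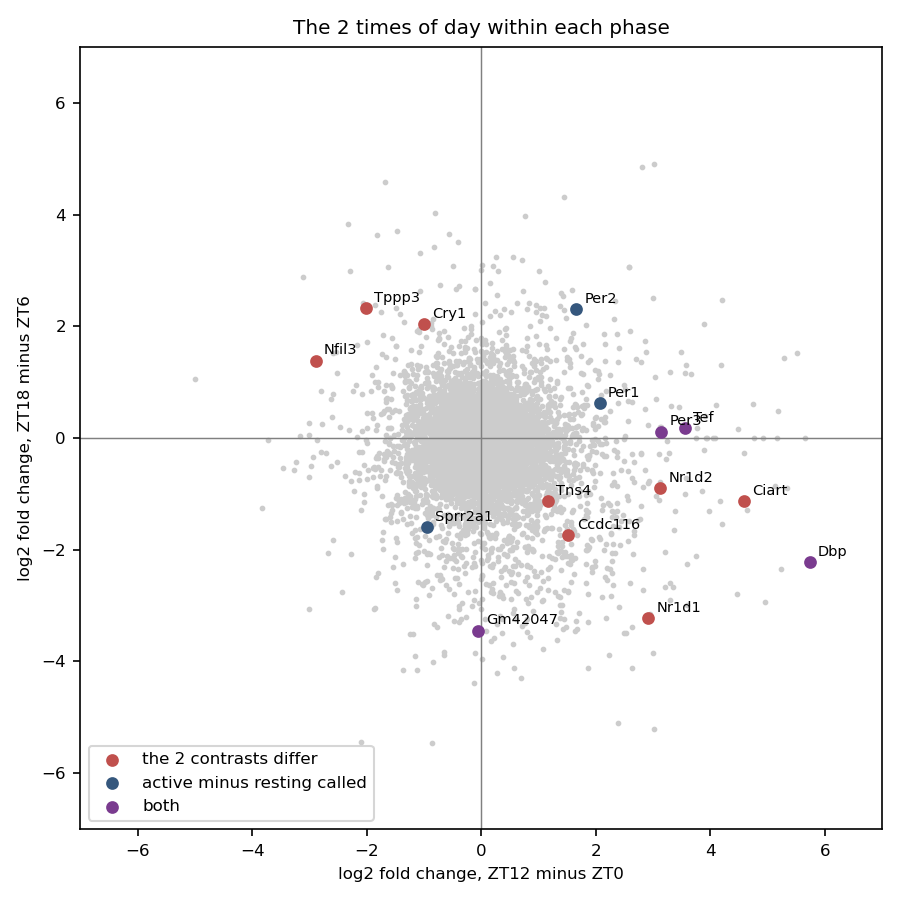
Log2 fold change of ZT18 over ZT6 against that of ZT12 over ZT0 for the genes tested, apart from those not reported here (2 lie outside the axes, which end at 7 in either direction). Blue points were called between the phases, red points between the 2 pairs of times and purple points in both. Per2, at 1.66 and 2.31, lies in the corner where both pairs are higher, while Dbp, at 5.74 and -2.22, does not.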

How the data were processed

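RNA sequencing libraries of colonic crypts (8 libraries, 2 at each of 4 time points) were compared. Per the labels, the kit was VAHTS Universal V6, while the methods of the study name a NEBNext Ultra kit. The submitters' processing notes and the methods of the study name STAR, GRCm38 and DESeq2. The annotation and the counting, strand included, are not given in the sources used here. The authors deposited 1 table whose library columns hold a signal: read counts per gene that were divided by a size factor of the library, which the text calls normalised counts. Its mean, log2 fold change, standard error, test statistic, p-value and adjusted p-value columns hold the authors' own comparison and were not used. The study's legend gives more mice per time point than the 2 libraries analysed here.

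The steps between values gave back whole reads (100% within 0.1 of a whole read in each library). Of 4 symbols on more than 1 row, the row with the higher mean was used for the lists. Genes with a mean of at least 10 were kept, 13503 of 14247. Of the 14247 identifiers, 14244 matched GENCODE M21 (GRCm38). The main test was limma 3.58.1 (R 4.3.3, eBayes with trend) on log2(normalised count + 1) with a mean per time point, and the phase contrast was the mean of ZT12 and ZT18 minus that of ZT0 and ZT6. Fold changes on this scale understate the change of low genes. P-values were adjusted by Benjamini-Hochberg over the 13503 genes and called under 0.05. With time point means in the fit, 4 degrees of freedom among libraries remain, and the p-values measure the spread between libraries of a time point. Changes of each library, scaling, pseudocount, filter and replicate block, and edgeR 4.0.16 (quasi-likelihood) and DESeq2 1.42.0 on recovered reads, were tried as alternatives. A count of 0 allows up to 3 reads (2.41 to 3.70 normalised counts). This covers counting error alone, because PCR copies were not marked by molecular identifiers.

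On counts simulated for this contrast (13298 genes), limma recovered 81.5% of genes changed by 2 on the log2 scale, 36.4% of those changed by 1 and 2.99% of those changed by 0.5. Unchanged genes called in the same simulation numbered 8 with limma, 8 with edgeR and 49 with DESeq2.

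The members and the 31 gene lists (857 symbols, of which 824 were tested, 30 were not in the table and 3 were below the minimum) were chosen with earlier results of these data known. A list is described by its counts and its median, beside the same over all genes. The named genes were, among genes with no overlap between phases, up to 12 called in each direction, by size of change, filled up by p to 12, the 3 tested members at the head of each list and every called member, and the 5 called genes with the smallest p for the difference between the pairs of times. Some genes that this rule names or that counts include are not reported here.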

Additional observations from a re-analysis of the deposited data

Results flagged for a closer look

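In groups of 4 libraries, a library was set apart when its gap to the nearest other library over the group's range exceeded Dixon's 95% critical value, which chance gives in about 1 of 20 groups. Over 68 groups 2 were found. Trim30d in ZT0 replicate 2 had 693 normalised counts, against 27.2, 30.8 and 45.6 in the other resting libraries. The mitochondrial share of ZT0 replicate 1 was 12.2%, against 19.2%, 19.4% and 19.8% in the other resting libraries.

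For 8 of the named genes the change from ZT0 to ZT12 differed from the change from ZT6 to ZT18 by a test of the difference itself (limma, log2 scale). Dbp, Nr1d2, Nr1d1, Cry1 and Ccdc116 were named for their p in this same test, so that their flag followed from the naming. The difference was 7.95 for Dbp, 4.02 for Nr1d2, 6.14 for Nr1d1, -3.04 for Cry1 and 3.27 for Ccdc116. It was 3.39 for Tef (3.56 and 0.17 at the 2 pairs of times, adjusted p = 0.0227), 3.39 for Gm42047 (-0.06 and -3.45, adjusted p = 0.0358) and 3.03 for Per3 (3.15 and 0.12, adjusted p = 0.0458).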

How the results depend on the processing

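The numbers of called genes depended on the fit. Between the phases, 8 genes became 1 (1 higher, 0 lower) with phase as the only term, 0 in limma without the mean-variance trend (970 at an unadjusted p under 0.05), 5 (3 higher) with quantile normalisation and 5 (1 lower) with a pseudocount of 0.1. EdgeR gave 1 (1 higher, 0 lower, 994 at an unadjusted p under 0.05) and DESeq2 71 (36 higher, 35 lower). Without ZT12 replicate 1 and ZT0 replicate 2 together, 4 genes were called (2 higher) and 0 of them were among the 8. Leaving out 1 library at a time gave 0 to 12 genes, 0 to 10 higher and 0 to 2 lower, with the library behind each count given above. For ZT12 against ZT0, 9 genes became 1 without the trend, 2 without the pair of libraries, 5 by edgeR and 135 by DESeq2. Single omissions gave 5 to 13, with 5 without ZT6 replicate 1, ZT6 replicate 2 or ZT12 replicate 2. For ZT18 against ZT6, 6 became 1 without the trend, 0 without the pair of libraries (limma, 896 at an unadjusted p under 0.05) and 68 by DESeq2. Single omissions gave 0 to 9, with 0 without ZT6 replicate 1 (311 at an unadjusted p under 0.05), 1 without ZT6 replicate 2 and 3 without either ZT12 library. For the difference between the pairs of times, 13 became 1 without the trend, 0 without the pair of libraries (limma, 679 at an unadjusted p under 0.05), 6 by edgeR and 105 by DESeq2. Single omissions gave 3 to 16, with 3 and 4 without the ZT6 libraries, 7 and 5 without those of ZT12, 8 without ZT0 replicate 2 and 8 without ZT18 replicate 1. Fits with a library left out rest on fewer samples, and the cause of the other shifts was not tested.

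Over 21 alternatives, Per2 was called in 15, Tef in 13, Sprr2a1 in 10, Dbp in 9, Per3 and Gm42047 in 8 and Per1 in 6, and each of the 8 kept its direction. Among the alternatives, 8 left out 1 library and so kept 1 at that time point. In these fits the call held in 4 for Per2 and Tef, 2 for Per3 and 1 for Per1, Dbp and Sprr2a1. For Gm42047 it held in 0 of the 8. Nr1d1, which was not called, ranged from -0.41 without ZT0 replicate 2 to 0.10 without ZT0 replicate 1. With the replicate block the count was 7 (4 higher, 3 lower). Libraries of the same number correlated at -0.29 to 0.22 over pairs of time points, so the numbers do not pair them. The other scalings shifted the median gene by at most 0.04 on the log2 scale.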

Other observations

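Genes that were switched on or off between libraries, with at most 1 read in some libraries and at least 20 in each of the rest, numbered 40, and they were picked for this pattern. In 11 of them, Pbsn among them, ZT12 replicate 2 alone held reads. In 6, Hoxb4, Hoxb8, Hoxd4, Sis, Nts and Ugt8a, ZT0 replicate 1 and ZT18 replicate 1 lacked them, 1 library of each phase. Trim5, Trim12a and Gm15133 lacked reads in ZT0 replicate 1 and both ZT6 libraries, and Phyhip, on chromosome 14, had reads in those 3 libraries (32.0 to 56.6 normalised counts) and at most 1 read in the other 5. Fam124a, on the same chromosome, had 7.39 to 28.8 in those 3 and 158 to 273 in the other 5.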
